A study of Mus musculus with 203 samples.

Results

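Dexamethasone given alone, with neither allergen nor smoke, was examined in dissected airway of the mouse. The comparison took 20 libraries, 9.85% of those in the series, by their titles: 10 titled 11-Airway-PBS.AIR.DEX and 10 titled 11-Airway-PBS.AIR, matched to the count table by the X code of each library. Both groups were female Balb/C mice, 18 to 20 weeks old by the labels, that received phosphate-buffered saline (PBS) intranasally and breathed normal air (AIR). PBS and air were the controls for the house dust mite extract (HDM) and cigarette smoke (CS) given to other groups. The DEX mice received dexamethasone during week 11, and its dose and route, and whether the control mice received a vehicle, were not given in the sources used here. Total RNA was sequenced from airway that had been separated from lung parenchyma by blunt dissection, so each library mixed epithelium, muscle, cartilage, vessels and resident or passing leucocytes. The comparison asked which airway genes differed with the steroid in mice given neither allergen nor smoke. The labels did not say that each library came from a separate mouse, and p-values then measure only the spread between these libraries, which may in part be technical.

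Dexamethasone is a synthetic glucocorticoid. It binds the glucocorticoid receptor, encoded by Nr3c1, which is held in the cytoplasm by heat shock proteins and moves to the nucleus on binding. There the receptor raises transcription of genes with its response elements, such as Tsc22d3, Fkbp5 and Per1, and lowers transcription driven by NF-kB, AP-1 and interferon-activated factors. Inhaled and systemic glucocorticoids are the main anti-inflammatory treatment of asthma, and lymphocytes and dendritic cells are known to be sensitive to them. Glucocorticoids are also a timing signal for the circadian clock of peripheral tissues, and they promote maturation of the surfactant-producing alveolar type II cell.

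The libraries held 23368647 to 34962460 estimated counts in controls and 22638626 to 37103574 with DEX, with no detected difference between the groups (permutation test of the difference of means, 100000 resamples, 2-sided, p = 0.62). Levels below are CPM, counts scaled to library size and by TMM. Airway markers were present: in control airway and control parenchyma, the median summed level of the ciliated cell list was 1455 and 601 CPM, of the smooth muscle list 1811 and 573 CPM, and of the cartilage list 79.2 and 11.1 CPM. Alveolar markers were present too, with a median sum of 16674 CPM for the alveolar type II list in control airway against 26940 CPM in control parenchyma. Several libraries stood apart. Control replicate 4 and DEX replicate 4 had the highest summed T cell list of their groups (805 and 420 CPM) and the highest B cell list (1660 and 1393 CPM). Control replicates 1, 4, 7 and 8 had the lowest alveolar type II sums, 8054 to 10115 CPM, against 15458 to 28102 CPM in the other controls. Control replicate 1 had the highest mucus cell sum, 3133 CPM. Clock gene levels fell into 3 ranges of the library codes (X1 to X60, X61 to X120 and X121 to X200, with 3, 3 and 4 libraries of each group), and what these ranges stand for is not given in the sources used here. The ranges were drawn after clock gene values had been seen, and the fit without them is the one described unless the ranges are named.

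Of 16900 genes tested with limma-voom, 802 rose with DEX (4.75% of genes tested) and 827 fell (4.89%) at an adjusted p under 0.05. The fold changes were mostly modest: the median size among these 1629 genes was 0.49 on the log2 scale, 70 genes (0.414%) rose by a log2 fold change (log2FC) of at least 1, and 224 (1.33%) fell by at least that much. All 10 DEX libraries lay above all 10 control libraries for 45 of the genes that rose (0.266% of genes tested), and all lay below for 67 of those that fell (0.396%). With the 3 code ranges as a term in the fit, 1006 genes rose (5.95%) and 988 fell (5.85%), and 1601 of the 1629 genes were among them. Within every range, 781 of the 802 genes that rose were higher on average with DEX, and 817 of the 827 that fell were lower. These genes were chosen for their direction in the same 20 libraries, so this agreement is not a separate test. The DEX effect differed between the ranges for 31 genes (0.183%), 13 of them among the 1629. With the runs of 20 consecutive codes as a term, each run holding 1 control and 1 DEX library of airway, 1717 genes rose and 1633 fell. Without DEX replicate 2 or 3, the count of genes that rose was 525 or 513.

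**Figure D1:**
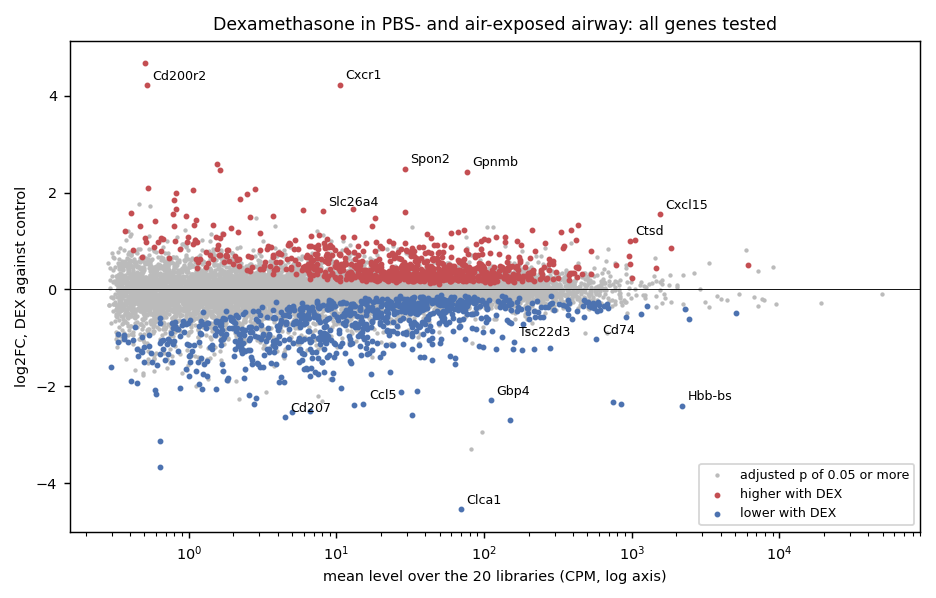
Each point is 1 of the 16900 genes tested: the x axis is the mean level over the 20 libraries in CPM on a log axis, and the y axis the log2FC of DEX against control airway, with red for the 802 genes that rose, blue for the 827 that fell and grey for the rest. The rises of Cxcr1 and Cd200r2 lie past a log2FC of 4, and more genes lie below −1 (224) than above 1 (70).

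The largest rise among genes with a mean of at least 1 CPM with DEX was that of Cxcr1, a receptor for neutrophil-attracting CXC chemokines. It ranged from 0.429 to 1.74 CPM in controls (median 1.04) and from 8.16 to 35 CPM with DEX (median 18.4). Every DEX library lay above every control, and the log2FC was 4.23 ± 0.46 (SE, n = 10 per group; limma adjusted p = 9.6e-06). A pair of genes just under that level had folds of the same order. Cd200r2, an activating relative of the CD200 receptor that myeloid cells and mast cells carry, had 15 counts in all over the 10 controls, 0 to 5 per library, and 301 over the 10 DEX libraries, 10 to 57 per library (log2FC 4.21 ± 0.41, limma adjusted p = 3.1e-06). Awat1, an acyltransferase that makes wax esters, had 12 counts in all in controls, where 6 libraries held none, and 296 with DEX, at least 8 in each library (log2FC 4.67 ± 0.49, limma adjusted p = 6.4e-06). With so few control counts, the fitted folds of Cd200r2 and Awat1 depend on the small offset added before taking logarithms, but neither gene's groups overlapped. Pnmt, the enzyme that converts noradrenaline to adrenaline and a classical glucocorticoid-dependent gene of the adrenal medulla, ranged from 0.111 to 0.945 CPM in controls (median 0.4) and from 1.16 to 6.27 CPM with DEX (median 2.11), again without overlap (log2FC 2.59 ± 0.37, limma adjusted p = 1.7e-04).

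Gdf15, a stress-induced member of the TGF-beta family, had control levels of 0.145 to 0.955 CPM (median 0.411) and DEX levels of 0.449 to 5.45 CPM (median 2.72), so that 9 of 10 DEX libraries lay above every control (log2FC 2.46 ± 0.46, limma adjusted p = 0.0019). Ptgds, which makes prostaglandin D2, rose from a control median of 0.864 to a DEX median of 4.17 CPM (log2FC 2.07 ± 0.46, limma adjusted p = 0.0073). Spon2, a secreted matrix protein that binds microbes, rose from a median of 6.5 to 46.4 CPM (log2FC 2.49 ± 0.37, limma adjusted p = 2.4e-04), but its effect differed between the code ranges, with log2FC of 2.91, 0.67 and 3.59 in the 3 ranges in order of code (limma adjusted p of the difference = 0.0074). Bcas3os1 (log2FC 2.04) and the pseudogene Gm16072 (1.98) followed, and with Cxcr1, Pnmt, Gdf15, Ptgds, Spon2 and Gpnmb they made up the 8 largest rises at a mean of at least 1 CPM. Gm16072 had log2FC of 2.41, 0.16 and 3.07 in the 3 code ranges (limma adjusted p of the difference = 0.42). Reads of an antisense transcript and its partner, or of a pseudogene and its parent, may be mixed in counts whose strand use is not stated. Gene levels that rose with little spread included Lhfpl2, a tetraspan membrane protein, at 10.6 to 20.1 CPM in controls and 24.9 to 39.3 CPM with DEX (log2FC 1.01 ± 0.10, limma adjusted p = 3.6e-06), and Itga7, a laminin-binding integrin of muscle, at 13.3 to 23.3 and 31.3 to 41.3 CPM (log2FC 0.83 ± 0.09, limma adjusted p = 8.7e-06). Neither overlapped between the groups.

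**Figure D2:**
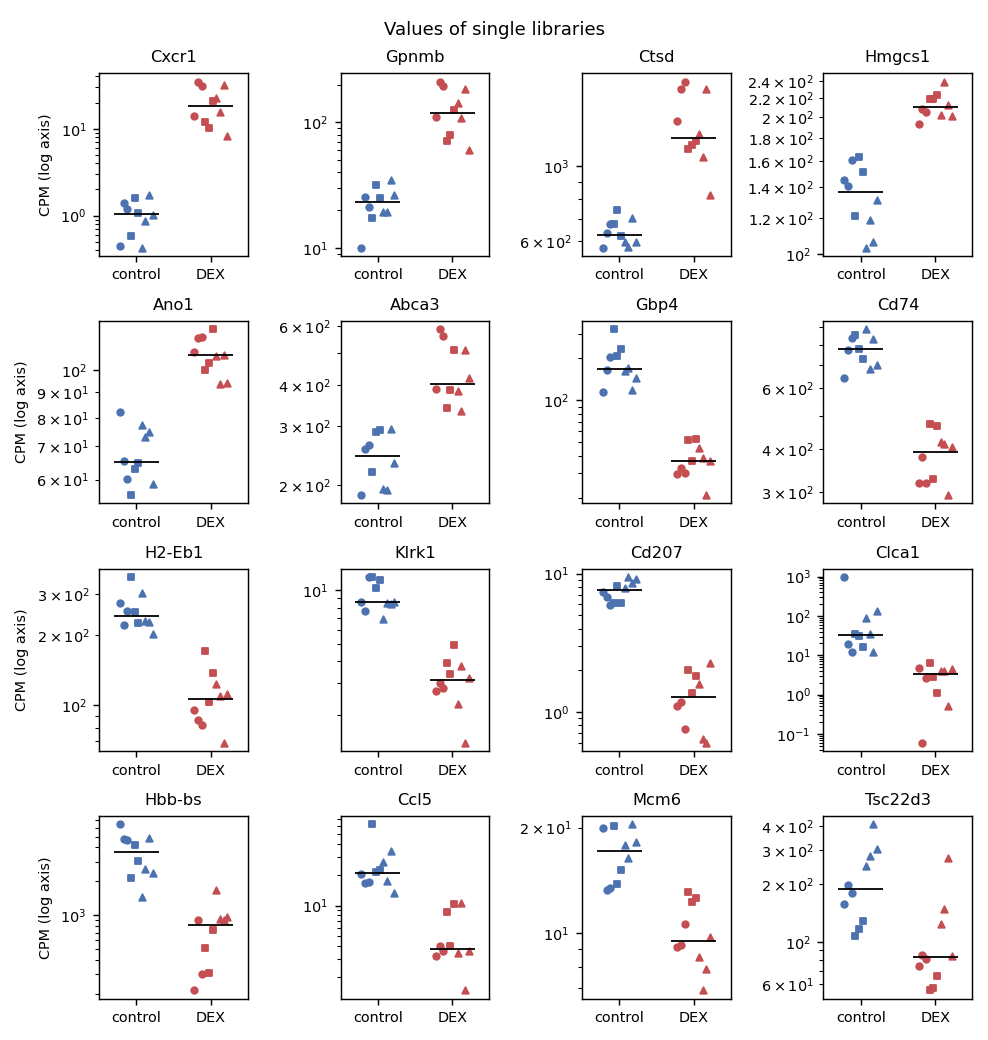
CPM on a log axis in each of the 20 libraries for 16 genes named in the text, control against DEX; each point is 1 library, with circles for X1 to X60, squares for X61 to X120 and triangles for X121 to X200, and the bar is the group median. The 10 DEX libraries lie above all controls for Cxcr1 and Gpnmb and below all controls for Gbp4 and Cd207.

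Several lysosomal genes rose. Gpnmb, a glycoprotein of lysosomes in macrophages and other phagocytes, ranged from 10.1 to 34.8 CPM in controls (median 23.2) and from 60.3 to 211 CPM with DEX (median 118.8), without overlap (log2FC 2.43 ± 0.24, limma adjusted p = 3.6e-06). Ctsd, the aspartic protease cathepsin D, ranged from 574 to 741 CPM in controls and from 823 to 1788 CPM with DEX (log2FC 1.01 ± 0.11, limma adjusted p = 1e-05). Dpp7, a lysosomal dipeptidase, ranged from 17.9 to 22.2 and from 24.8 to 32.1 CPM (log2FC 0.47 ± 0.05, limma adjusted p = 1.6e-05). The collagen-degrading protease Ctsk had medians of 71.3 and 171.1 CPM (log2FC 1.09 ± 0.14, limma adjusted p = 6.2e-05). In a lysosome list drawn up after these genes had been seen, 18 of 36 members rose, 17 did not pass, 1 fell and the median log2FC was 0.27, against a median of 0.0038 over all genes tested; 15 to 21 rose when 1 library was left out. In the macrophage list, 3 of 16 members rose, 2 fell and 11 did not pass, beside 4.75% of all genes rising and 4.89% falling. Those that rose were Cd68, a lysosomal glycoprotein (median 35.5 and 56.8 CPM, log2FC 0.76), Chil3, a chitinase-like protein (median 232 and 481 CPM, log2FC 1.32), and Lyz2, which encodes lysozyme (log2FC 0.50, limma adjusted p = 0.04, with 2.0e-04 to 0.086 over the alternatives). Those that fell were Ear2, a ribonuclease (median 63.3 and 21.4 CPM, log2FC −1.46), and Lyve1, a hyaluronan receptor of lymphatic vessels and of a set of interstitial macrophages (median 228 and 131.8 CPM, log2FC −0.71). In bulk tissue, more or fewer cells of a type and more or less RNA per cell cannot be told apart, here and in the gene groups below.

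The cholesterol and fatty acid synthesis list contained 14 genes that rose and none that fell of 27 tested, against 4.75% of all genes rising, with a median log2FC of 0.38. Those described here are enzymes of cholesterol synthesis. Hmgcs1, which makes HMG-CoA, ranged from 103.3 to 163.5 CPM in controls and from 193.4 to 239 CPM with DEX (log2FC 0.68 ± 0.08, limma adjusted p = 2.6e-05). The sterol dehydrogenase Nsdhl went from 20.8 to 25.6 CPM in controls to 27.6 to 38.3 CPM with DEX (log2FC 0.45 ± 0.06, limma adjusted p = 5.4e-05). The desaturase Sc5d went from 21 to 29.2 CPM to 29.4 to 39.2 CPM (log2FC 0.39 ± 0.07, limma adjusted p = 7.7e-04). These 3 had no overlap between the groups. Cyp51, a sterol demethylase, rose with overlapping libraries (log2FC 0.48). Over the alternatives, 11 to 19 members rose.

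Genes of the alveolar type II cell, which makes surfactant, were higher in DEX airway, with 8 of 12 members rising and none falling (median log2FC 0.78). Abca3, the lipid transporter of lamellar bodies, ranged from 186.1 to 294 CPM in controls and from 333 to 588 CPM with DEX, without overlap (log2FC 0.86 ± 0.12, limma adjusted p = 1.2e-04). Cxcl15, a chemokine of lung epithelium, had medians of 742 and 2199 CPM (log2FC 1.56 ± 0.31, limma adjusted p = 0.0031), and the surfactant proteins Sftpb and Sftpd rose by log2FC of 0.86 and 0.69. Sftpc, the most specific member, had medians of 8511 and 9111 CPM and did not pass (log2FC 0.47, limma adjusted p = 0.31). The summed list ranged from 8054 to 28102 CPM in controls and from 14706 to 36405 CPM with DEX, and the 4 lowest controls were also the lowest in the alveolar type I list, 1843 to 2696 CPM. None of the 10 alveolar type I genes passed, although their median log2FC was 0.40. The part of the amount of alveolar tissue in these libraries in the rise was not tested.

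Secreted and transport proteins also rose. In the extracellular matrix list, 10 of 27 members rose and 1 fell. Fbn1, which encodes the microfibril protein fibrillin, had medians of 50.2 and 91.8 CPM (log2FC 0.81 ± 0.13, limma adjusted p = 4.3e-04), elastin (Eln) 61.7 and 145.8 CPM (log2FC 1.03 ± 0.19, limma adjusted p = 0.0016), and the collagen chain Col5a2 77.7 and 108.4 CPM (log2FC 0.53 ± 0.10, limma adjusted p = 0.0016). The log2FC of Eln was 1.36, 0.08 and 1.48 in the 3 code ranges (limma adjusted p of the difference = 0.16). The member that fell was fibronectin, Fn1 (median 220 and 170 CPM, log2FC −0.38, limma adjusted p = 0.029), and its call was lost without DEX replicate 1 (adjusted p = 0.052). In the ion and water transport list, 4 of 16 rose, all of them anion channels or exchangers. Ano1, the calcium-activated chloride channel, ranged from 55.8 to 82.3 CPM in controls and from 93.6 to 120.8 CPM with DEX (log2FC 0.66 ± 0.07, limma adjusted p = 8.7e-06). Slc26a4, the chloride and bicarbonate exchanger pendrin, ranged from 0.979 to 6.09 and from 6.84 to 18.9 CPM (log2FC 1.61 ± 0.26, limma adjusted p = 5.1e-04). Neither overlapped between the groups. Cftr, the chloride channel mutated in cystic fibrosis, rose with overlap (median 26.3 and 40 CPM, log2FC 0.87, limma adjusted p = 0.011). In the acute phase and host defence list, 5 of 15 rose, among them the iron-chelating protein Lcn2 (log2FC 1.22), the protease inhibitor Serpina3n (1.17) and the glycoprotein Lrg1 (1.14). Among the other function lists, the changes were few, beside 4.75% of all genes tested rising and 4.89% falling. In the insulin and FOXO list, 2 of 22 rose (the receptor Igf1r and its adaptor Irs2) and 2 fell (Sesn1 and Pik3ip1). In the NF-kB list, 2 of 17 rose, the inhibitor Tnip1 and the prostaglandin synthase Ptgs2. In the bronchomotor list, 2 of 19 rose, the prostacyclin receptor Ptgir and the phosphodiesterase Pde4d. The calls of Pde4d, Pik3ip1, Ptgir and Ptgs2 were lost in 14, 13, 2 and 1 of the 31 alternatives.

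Genes of antigen presentation were among those that fell. MHC class II molecules present peptides to CD4+ T cells, and all 10 genes of that list fell, with a median log2FC of −1.12; 9 or 10 fell in every alternative. The invariant chain Cd74, which occupies the peptide groove during assembly, ranged from 643 to 888 CPM in controls (median 777) and from 295 to 472 CPM with DEX (median 392), without overlap (log2FC −1.02 ± 0.09, limma adjusted p = 1.4e-06). The peptide exchange factors H2-DMa and H2-DMb1 ranged from 36.5 to 51 and from 24.9 to 37.1 CPM in controls, and from 18.7 to 26.4 and from 12.2 to 18.3 CPM with DEX (log2FC −0.96 and −0.85, limma adjusted p = 7.5e-07 and 2.8e-06). Of the chains that display the peptide, H2-Aa ranged from 292 to 567 CPM in controls and from 113.9 to 280 CPM with DEX (log2FC −1.22 ± 0.14, limma adjusted p = 1.8e-05). H2-Eb1 ranged from 202.8 to 356 CPM in controls and from 68.9 CPM upward with DEX (medians 241 and 106.5; log2FC −1.25 ± 0.14, limma adjusted p = 1e-05). These 5 genes had no overlap between the groups. H2 genes were counted against a genome of another mouse strain, which limits how well their levels are known in both groups. MHC class II transcription depends on the coactivator CIITA, which has no DNA-binding domain of its own and is recruited by factors bound to the S, X and Y boxes upstream of each gene. Ciita was among the members that fell. The letters of the Y box, GATTGG on either strand, were searched in RefSeq promoter sequences (build GRCm38.p6) that run from before to after the start. They were in 7 of 7 MHC class II genes with an entry in the promoter table, and in 18.2% of all 27025 genes with an entry. A gene was counted if any of its promoters, all of the same length, held them. The windows below show only the 150 bases before the start. The 3 windows are shown because these genes fell without overlap between the groups and share that box; capitals mark GATTGG or its reverse complement, each window is written 5′ to 3′ on the strand of its gene, and the last base lies next to the start.
H2-Aa, chr17:34287824-34287973, minus strand: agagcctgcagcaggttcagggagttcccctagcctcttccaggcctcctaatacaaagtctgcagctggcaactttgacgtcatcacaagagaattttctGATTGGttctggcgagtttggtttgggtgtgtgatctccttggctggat
H2-Eb1, chr17:34305717-34305866, plus strand: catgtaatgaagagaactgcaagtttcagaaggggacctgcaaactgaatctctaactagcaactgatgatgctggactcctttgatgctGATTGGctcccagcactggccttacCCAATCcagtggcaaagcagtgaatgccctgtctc
H2-DMb1, chr17:34153041-34153190, plus strand: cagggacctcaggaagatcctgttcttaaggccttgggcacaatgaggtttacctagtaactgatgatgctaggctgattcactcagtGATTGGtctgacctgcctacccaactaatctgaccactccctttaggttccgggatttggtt

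Interferon-inducible genes fell as well. In the interferon response list, 17 of 25 members fell and none rose (median log2FC −0.66), against 4.89% of all genes falling, and 13 to 23 fell over the alternatives. The interferon-inducible GTPases coat vacuoles that hold intracellular parasites and bacteria. Gbp4 ranged from 114.6 to 324 CPM in controls (median 166.8) and from 20.9 to 52.6 CPM with DEX (median 36.7), and all DEX libraries lay below all controls (log2FC −2.28 ± 0.18, limma adjusted p = 2.2e-07). Gbp3 ranged from 30.2 to 74.1 and from 13.1 to 25.4 CPM (log2FC −1.22 ± 0.15, limma adjusted p = 4.5e-05). The p47 GTPase Irgm2 ranged from 40.6 to 77.8 and from 25 to 36.7 CPM (log2FC −0.997 ± 0.11, limma adjusted p = 1.1e-05), and Igtp from 30.9 to 93.5 and from 17 to 31.8 CPM (log2FC −1.15 ± 0.18, limma adjusted p = 4.9e-04). Reads of near-identical family members were shared out by the counting, so levels of single Gbp genes are uncertain. In a GTPase list drawn up after Gbp4 had been seen, 14 of 15 members fell (median log2FC −1.18). Ube2l6, the enzyme that passes the ubiquitin-like ISG15 to its targets, fell with the least spread, from 36.9 to 55.4 CPM in controls to 24.7 to 28.6 CPM with DEX (log2FC −0.78 ± 0.07, limma adjusted p = 4.1e-07). Rsad2, which encodes the antiviral enzyme viperin, had medians of 6.83 and 2.86 CPM (log2FC −1.18 ± 0.17, limma adjusted p = 1.9e-04), and Ifit3, which binds viral RNA complexes, 56.1 and 33.4 CPM (log2FC −0.86 ± 0.14, limma adjusted p = 6.7e-04). In a list of MHC class I chains and their peptide supply, also drawn up later, 11 of 16 fell and none rose (median log2FC −0.59). The core of the interferon-stimulated response element was searched as GAAA, any 2 bases and GAAA, on either strand of the same longer promoter sequences. It was found in 10 of 10 GTPase genes with an entry and in 11 of 18 genes of the interferon response list, against 3.99% of all 27025 genes with an entry. The following windows come from 3 GTPase genes described above, with that core and its copies on the minus strand in capitals as well; GATTGG and this core can overlap by their end letters.
Irgm2, chr11:58214827-58214976, plus strand: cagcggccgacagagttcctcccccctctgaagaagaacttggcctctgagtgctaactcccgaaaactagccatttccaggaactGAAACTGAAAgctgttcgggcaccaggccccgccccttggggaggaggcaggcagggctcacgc
Igtp, chr11:58199406-58199555, plus strand: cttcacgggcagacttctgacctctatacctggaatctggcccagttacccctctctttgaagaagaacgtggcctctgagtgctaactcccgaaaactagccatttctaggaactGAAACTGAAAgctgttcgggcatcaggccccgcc
Gbp3, chr3:142559894-142560043, plus strand: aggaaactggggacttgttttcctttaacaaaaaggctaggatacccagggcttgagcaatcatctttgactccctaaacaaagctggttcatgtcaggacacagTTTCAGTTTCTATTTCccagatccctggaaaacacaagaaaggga

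Genes of natural killer (NK) cells fell as a whole list. NK cells kill infected or stressed cells through perforin and granzymes. All 11 members fell, with a median log2FC of −1.73, and all 11 fell whichever library was left out. Klrk1, the activating receptor NKG2D, ranged from 6.91 to 11.9 CPM in controls and from 1.39 to 4.94 CPM with DEX (log2FC −1.64 ± 0.17, limma adjusted p = 5.7e-06). Klrd1, the CD94 receptor chain, ranged from 4.24 to 9.03 and from 0.79 to 3.44 CPM (log2FC −1.81 ± 0.23, limma adjusted p = 5.4e-05), and Klre1, another lectin-like receptor, from 1.07 to 2.82 and from 0.173 to 1 CPM (log2FC −2.06 ± 0.27, limma adjusted p = 5.9e-05). These 3 did not overlap between the groups, and granzyme A (Gzma) had medians of 45.1 and 11.3 CPM with a small overlap (log2FC −2.12 ± 0.33, limma adjusted p = 4.0e-04). The summed list ranged from 69.6 to 169.1 CPM in controls and from 14.9 to 67.2 CPM with DEX, so that the groups did not overlap in it either. Ccl5, a chemokine that NK and T cells release, fell from 13.3 to 62.3 CPM in controls to 1.47 to 10.5 CPM with DEX (log2FC −2.37 ± 0.34, limma adjusted p = 1.9e-04).

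Dendritic cell genes fell in part, 5 of 11 members (median log2FC −0.88). Those that fell included markers of the cross-presenting subset: Xcr1, the receptor for a chemokine of NK and CD8+ T cells, ranged from 6.61 to 13.9 CPM in controls and from 1.66 to 5.88 CPM with DEX (log2FC −1.70 ± 0.22, limma adjusted p = 5.9e-05). Clec9a, a receptor for dead cells, had medians of 14.3 and 3.49 CPM (log2FC −1.85 ± 0.23, limma adjusted p = 2.8e-05), the growth factor receptor Flt3 7.61 and 3.39 CPM (log2FC −1.26 ± 0.16, limma adjusted p = 4.5e-05), and the integrin Itgae 11.9 and 6.16 CPM (log2FC −1.04 ± 0.17, limma adjusted p = 5.0e-04). Xcr1 and Flt3 did not overlap between the groups. Cd207, the lectin langerin of Langerhans cells and of airway dendritic cells, had one of the smallest p-values of all genes: it ranged from 5.94 to 9.49 CPM in controls (median 7.67) and from 0.599 to 2.28 CPM with DEX (median 1.28; log2FC −2.63 ± 0.20, limma adjusted p = 2.2e-07). The pseudogene Gm18852 fell alike without overlap (median 4.03 and 1.01 CPM, log2FC −2.17). Dnase1l3, an extracellular DNase that dendritic cells and macrophages secrete, had medians of 8.02 and 1.09 CPM (log2FC −2.51 ± 0.63, limma adjusted p = 0.015), but did not pass with edgeR or DESeq2 (adjusted p = 0.14 and 0.099).

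T cell and B cell genes were lower on average but varied widely. Of the T cell list, 7 of 18 members fell (median log2FC −1.13), and this count went from 0, without DEX replicate 1, 2, 3 or 9, to 15, without DEX replicate 4. It was 1 to 4 without control replicate 1, 4, 5, 7, 8 or 9 or DEX replicate 5, 7 or 10, and 11 or 12 without control replicate 2 or DEX replicate 6 or 8. With edgeR 1 fell, with the runs of 20 codes as a term 12 fell, and 13 fell when replicate 4 of both groups was left out. The summed T cell list ranged from 187.8 to 805 CPM in controls and from 71.4 to 420 CPM with DEX. Of the B cell list, 8 of 14 fell (median log2FC −1.10), and 2 to 11 fell when 1 library was left out, with 2 without DEX replicate 1, 2, 3 or 9 and 3 to 5 without control replicate 1, 4, 7, 8 or 9 or DEX replicate 7 or 10. Fcrla, an Fc receptor-like protein inside B cells, had medians of 9.14 and 3.37 CPM (log2FC −1.42 ± 0.25, limma adjusted p = 0.0013), and Fcer2a, the low-affinity IgE receptor, 14 and 5.63 CPM (log2FC −1.31 ± 0.33, limma adjusted p = 0.015). Of 5 thymocyte genes tested 1 fell, and no plasma cell gene passed of 8. In the cell cycle list, 14 of 31 members fell and none rose (median log2FC −0.36), 10 to 15 of them when 1 library was left out. The replicative helicase subunit Mcm6 ranged from 13.3 to 20.4 CPM in controls and from 6.88 to 13.1 CPM with DEX (log2FC −0.77 ± 0.12, limma adjusted p = 4.9e-04), and Ccne2, a cyclin of S phase entry, from 2.22 to 4.78 and from 1.07 to 2.12 CPM (log2FC −1.05 ± 0.17, limma adjusted p = 6.7e-04). Neither overlapped, and Pcna, the sliding clamp of DNA polymerase, fell by 0.25 on the log2 scale (limma adjusted p = 0.0018). Among 9 mast cell genes tested, 1 rose, 1 fell and 7 did not pass, against 4.75% of all genes rising and 4.89% falling. The histamine-producing enzyme Hdc rose (log2FC 0.55, limma adjusted p = 0.0037). The IgE receptor chain Ms4a2, with no control library above 1.73 CPM, fell (log2FC −1.56, limma adjusted p = 0.017).

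Of 38 cytokine and chemokine genes tested, 5 rose, 6 fell and 27 did not pass, beside 4.75% of all genes rising and 4.89% falling. Besides Cxcl15, Ccl6, a chemokine of macrophages and neutrophils, rose (median 218 and 489 CPM, log2FC 1.23 ± 0.22, limma adjusted p = 0.0015). Besides Ccl5, the monocyte attractants Ccl8 (median 13 and 3.87 CPM, log2FC −2.03 ± 0.36, limma adjusted p = 0.0013) and Ccl12 (3.37 and 1.41 CPM, log2FC −1.28 ± 0.24, limma adjusted p = 0.0019) fell, as did Cxcl9, an interferon-gamma-induced attractant of T cells (4.76 and 0.785 CPM, log2FC −2.53 ± 0.68, limma adjusted p = 0.021).

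The largest fall of all was in Clca1, a protease secreted with mucus by goblet cells. It ranged from 11.9 to 990 CPM in controls (median 32.3) and from 0.0592 to 6.52 CPM with DEX (median 3.34), with no overlap although control replicate 1 stood far above the others (log2FC −4.54 ± 1.16, limma adjusted p = 0.017; −4.02 and 0.0027 without control replicate 1). Of the other members of the mucus cell list, Tff2, a mucus-binding trefoil peptide, fell (median 35 and 10.8 CPM, log2FC −2.10 ± 0.41, limma adjusted p = 0.0029). So did the gel-forming mucin Muc5ac (median 5.93 and 2.91 CPM, log2FC −1.42 ± 0.42, limma adjusted p = 0.035), with an adjusted p of 1.4e-04 to 0.07 over the alternatives. The other 7 of 10 did not pass. In the club cell list, 2 of 12 fell, beside 4.89% of all genes tested falling. They were the retinal dehydrogenase Aldh1a1 (median 2942 and 1970 CPM, log2FC −0.61, limma adjusted p = 0.010) and the carbonyl reductase Cbr2 (log2FC −0.49, limma adjusted p = 0.048, and 0.0077 to 0.091 over the alternatives).

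Red cell genes fell. The haemoglobin gene Hba-a1 ranged from 641 to 2331 CPM in controls (median 1284) and from 101 to 629 CPM with DEX (median 262), without overlap (log2FC −2.36 ± 0.34, limma adjusted p = 1.5e-04). Hbb-bs had medians of 3625 and 819 CPM and Hbb-bt 250 and 44.2 CPM (log2FC −2.40 and −2.70), and reads of these near-identical copies were shared out by the counting. Alas2, the first enzyme of haem synthesis in red cells, had medians of 50 and 9.89 CPM (log2FC −2.58 ± 0.35, limma adjusted p = 9.6e-05). The anion exchanger Slc4a1 fell from 342 counts in all over the controls to 40 over the DEX libraries (log2FC −3.13, limma adjusted p = 0.0021). Gm15056, whose link to red cells was not examined, fell from 333 to 30 counts (log2FC −3.67, limma adjusted p = 0.0030). In an erythroid list drawn up after the red cell genes had been seen, 9 of 10 tested members fell. The summed list ranged from 2891 to 11462 CPM in controls and from 495 to 3099 CPM with DEX, and the highest DEX library lay above the lowest control. How much blood each dissected airway held was not recorded in the labels, and its part in this fall, or in that of genes of circulating leucocytes, was not tested.

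**Figure D3:**
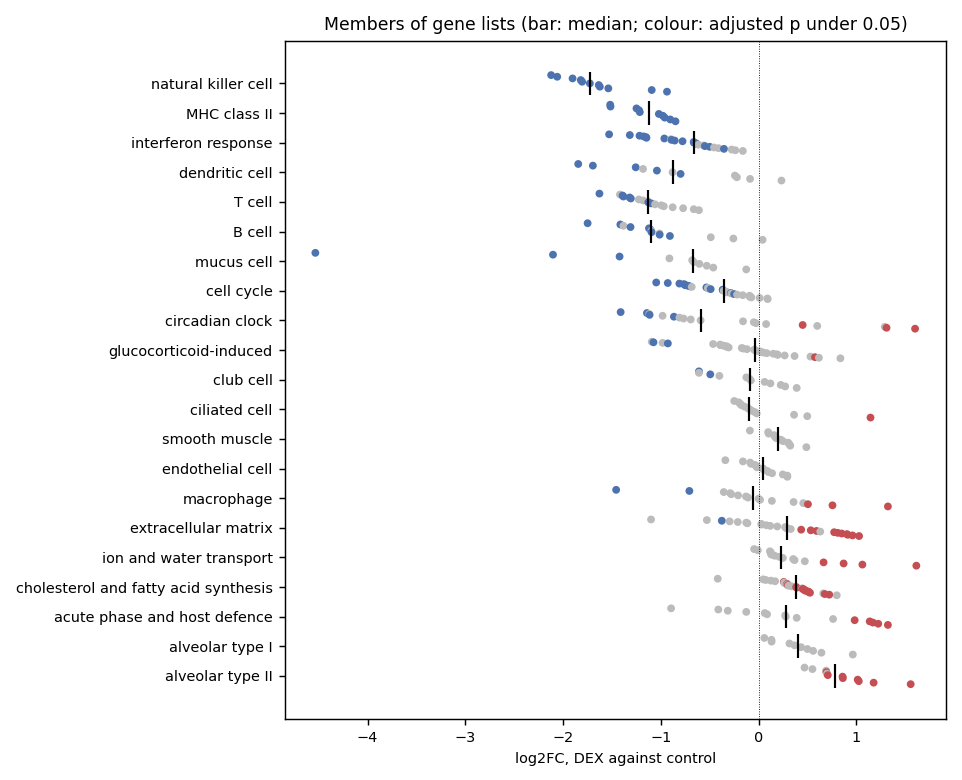
Log2 fold change of DEX against control airway for every tested member of 21 lists, 1 row per list; red points rose and blue points fell at an adjusted p under 0.05, grey points did not pass, and the bar is the list's median. All members of the natural killer cell and MHC class II lists lie left of 0 and passed, while alveolar type II and cholesterol genes lie mostly to the right.

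Few textbook targets of the glucocorticoid receptor passed in either direction. Of 30 genes in the glucocorticoid-induced list, 1 rose and 2 fell, beside 4.75% of all genes tested rising and 4.89% falling. The median log2FC of the list was −0.04. Tfcp2l1, an epithelial transcription factor, rose (median 32.6 and 43.1 CPM, log2FC 0.58 ± 0.15, limma adjusted p = 0.018). Tsc22d3, which encodes the anti-inflammatory mediator GILZ, ranged from 107.3 to 409 CPM in controls (median 189.1) and from 55.7 to 274 CPM with DEX (median 82.9), and fell (log2FC −1.08 ± 0.28, limma adjusted p = 0.019). It was lower with DEX in every code range, with log2FC of −1.14, −0.97 and −1.09. Fam107a, an actin-binding protein, fell in the same direction (log2FC −0.93, limma adjusted p = 0.049), with an adjusted p of 7.4e-06 to 0.096 over the alternatives. The receptor's co-chaperone Fkbp5 had medians of 23 and 26.2 CPM (log2FC −0.03 ± 0.29, limma adjusted p = 0.96), the transcription factor Klf9 75 and 77.9 CPM (limma adjusted p = 0.91), the phosphatase Dusp1 104.1 and 106.6 CPM (limma adjusted p = 0.96), and the kinase Sgk1 104.7 and 120.4 CPM (limma adjusted p = 0.26). The log2FC of Fkbp5 was 0.14 and 0.41 in the first and second code ranges and −0.52 in the third, with overlapping libraries in each (limma adjusted p of the difference = 0.93). The transcription factor Zbtb16 had medians of 24.9 and 10.3 CPM and the clock gene Per1 32.9 and 16.3 CPM, and neither passed (limma adjusted p = 0.094 and 0.11). With the code ranges as a term, 1 member rose and 5 fell, Per1 and Zbtb16 among them, and with the runs of 20 codes as a term 8 fell. The receptor Nr3c1 itself had medians of 215 and 181.4 CPM (log2FC −0.10 ± 0.09, limma adjusted p = 0.52). Of 18 tested genes of the receptor machinery, the coactivator Ncoa1 alone passed (log2FC 0.20, limma adjusted p = 0.043), with 0.0066 to 0.091 over the alternatives, beside the same shares of all genes tested. With either the code ranges or the runs of 20 codes as a term, 2 rose and 1 fell; with the ranges those that rose were Ncoa1 and the corepressor Ncor1 (log2FC 0.20, limma adjusted p = 0.041), and the one that fell was the mineralocorticoid receptor Nr3c2 (log2FC −0.25, limma adjusted p = 0.021). The time between the last dose and tissue collection was not given in the sources used here, and its part in these values was not tested.

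Clock genes differed between the groups in ways that depended on the code range. The ranges were drawn after clock gene values had been seen, so p-values for clock genes between ranges are not an independent test. The core clock is a loop in which Arntl and Clock drive the Per and Cry repressors, and Nr1d1 and Nr1d2 repress Arntl. Without the ranges, and beside 4.75% of all genes tested rising and 4.89% falling, 3 of 19 members rose (Arntl, Clock and Npas2, the activator arm) and 4 fell (among them Per2, Per3 and Hlf). The number that rose was 1 without control replicate 7, 8 or 9. With either the ranges or the runs of 20 codes as a term, 1 rose and 7 fell. Arntl had medians of 18.7 and 46.2 CPM in control and DEX libraries of the first range, 36.9 and 25.4 CPM in the second, and 3.83 and 45.2 CPM in the third. In each range the groups were apart, but in the second range the order was reversed (log2FC 1.36, −0.75 and 3.63; limma adjusted p of the difference = 2.3e-09). The repressor Nr1d1 had medians of 5.86 and 16.7, 2.99 and 105.6, and 45.6 and 11.9 CPM in the 3 ranges, so that the third range went the other way (log2FC 1.82, 5.19 and −2.19; limma adjusted p of the difference = 9.6e-07). The clock output Dbp, a transcription factor, had medians of 8.85 and 3.13, 6.31 and 32, and 65.7 and 5.09 CPM (log2FC −1.33, 2.41 and −3.63; limma adjusted p of the difference = 1.6e-07), and Nr1d2 went the same way as Dbp (log2FC −1.23, 2.10 and −2.56). Per2 kept its direction, with medians of 84.5 and 25.7, 46.4 and 19.1, and 125.1 and 58.9 CPM, and fell by 1.41 on the log2 scale (limma adjusted p = 0.0045). Arntl, Npas2 and Per3 were lost in some alternatives: their largest adjusted p values were 0.13, 0.13 and 0.077.

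**Figure D4:**
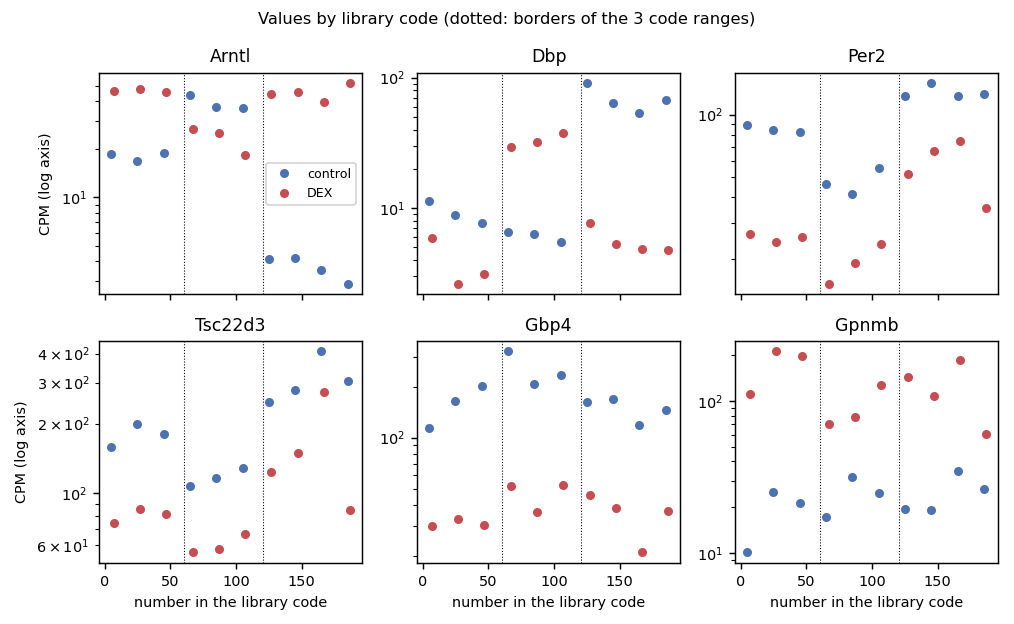
CPM on a log axis of Arntl, Dbp, Per2, Tsc22d3, Gbp4 and Gpnmb against the number in the library code, with control libraries in blue, DEX libraries in red and dotted lines between the 3 code ranges; each point is 1 library. Arntl is higher with DEX at codes up to X60 and above X120 but lower between them, while Gbp4 is lower and Gpnmb higher with DEX in all 3 ranges.

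With limma, none of the tested members passed in 14 lists: immediate early, plasma cell, eosinophil, neutrophil, basal cell, squamous epithelium, alveolar type I, endothelial cell, smooth muscle, cardiac muscle, skeletal muscle, cartilage, adipose and Schwann cell. Of the genes tested in them, 19 had an unadjusted p under 0.05, edgeR called 0 and DESeq2 called 1. Of 13 ciliated cell genes 1 passed, Mcidas (log2FC 1.14, limma adjusted p = 0.045, and 7.3e-04 to 0.085 over the alternatives), beside 4.75% of all genes tested rising. Of 2 thyroid genes tested 1 passed, Tshr (log2FC 1.51, limma adjusted p = 0.028, and 0.051 without control replicate 9). Both code terms changed the counts of lists named in the text. With the 3 code ranges as a term, 16 cholesterol, 9 alveolar type II, 6 cytokine, 3 bronchomotor, 3 insulin and FOXO and 1 alveolar type I genes rose, and 12 MHC class I, 7 cytokine, 6 T cell, 4 mucus, 3 insulin and FOXO and 1 immediate early genes fell. With the runs of 20 codes as a term, the counts that moved by over 1.5 times, besides those of the T cell, glucocorticoid and clock lists, were, among rises, 8 in ion and water transport, 5 in alveolar type I and 2 in adipose, with 1 each in endothelial cell and smooth muscle. Among falls they were 12 cytokine, 9 mucus, 6 insulin and FOXO, 4 extracellular matrix, 4 cartilage, 3 immediate early, 3 plasma cell, 2 thymocyte and 2 lysosome genes, with 1 each in eosinophil and basal cell. The fit without either term, on 20 libraries, could miss small or variable differences in these lists.

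The same contrast was set against those of 3 other pairs of 10 and 10 libraries. In lung parenchyma of mice under PBS and air, the DEX effect differed from that in airway for 62 of 17205 genes (0.36%). Side by side, the log2FC of Cxcr1 was 4.23 in airway and 4.12 in parenchyma, of Gpnmb 2.43 and 2.65, of Gbp4 −2.28 and −2.89, of Cd207 −2.63 and −2.52 and of Cd74 −1.02 and −1.03. Ctsk rose more in parenchyma (log2FC 1.09 and 1.99, difference −0.92, limma adjusted p = 0.045). The 4 genes with the smallest p on the side where the airway effect lay above that of parenchyma were the corepressor Hr (log2FC −0.24 in airway and −1.34 in parenchyma, limma adjusted p of the difference = 5.9e-04), the phosphatase subunit Ppp2r1b, the lymphatic growth factor Vegfc (−0.51 and −1.15) and the matrix protein Ltbp4 (−0.47 and −1.33). On the other side stood Tnfsf13, a B cell survival factor (0.04 and 0.76), Dmkn, an epithelial secreted protein (−0.08 and 1.00), the lipid-binding Sec14l3 (−0.31 and 0.43) and the tubulin Tuba4a (−0.16 and 0.38).

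In airway of smoke-exposed mice, DEX against no DEX gave a log2FC of 0.55 for Cxcr1 (limma adjusted p = 0.58), 0.36 for Gpnmb (limma adjusted p = 0.60) and 0.17 for Cd200r2 (limma adjusted p = 0.88). The difference from the effect in air passed for 2 of 17506 genes (0.0114%), Cd200r2 (4.03, limma adjusted p = 0.025) and the adhesion molecule Clmp (0.79 in air and −0.30 in smoke, limma adjusted p = 0.025). For Cxcr1 the difference of 3.66 did not pass (limma adjusted p = 0.092). Levels of Gpnmb, scaled over all 80 airway libraries, ranged from 9.93 to 34.7 CPM in PBS and air, from 60.6 to 211 CPM with DEX, from 67.9 to 308 CPM with smoke and from 80.3 to 360 CPM with both. The smoke libraries without DEX thus lay above every control in air, as the DEX libraries did. Among the falls, the log2FC in air and smoke was −1.02 and −1.15 for Cd74, −2.28 and −2.005 for Gbp4, −2.63 and −3.19 for Cd207 and −1.64 and −1.73 for Klrk1, and none of the MHC class II or NK genes was among the 2 that passed in the difference, although a miss of the threshold does not show that the effects were equal.

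In airway of HDM-exposed mice under air, the DEX effect differed from that under PBS for 659 of 17518 genes (3.76%), 447 with a higher log2FC under PBS and 212 with a lower one. Slpi, a protease inhibitor of airway secretions, stood first: its control and DEX medians were 24.6 and 25.3 CPM under PBS (log2FC 0.21, limma adjusted p = 0.48), and it fell under HDM (log2FC −2.81; difference 2.99, limma adjusted p = 2.6e-07). The cell division genes Sgo2a, which protects cohesion of centromeres, and Ect2, which drives cytokinesis, and the folding factor Edem1 were next (log2FC under PBS 0.07, −0.04 and 0.22, under HDM −1.60, −1.23 and −0.82). On the other side stood the glutathione transferase Gstm1, the kinase Mapk12, the Notch target Hes1 and the ubiquitin ligase Siah1a (log2FC under PBS −0.08, −0.21, −0.20 and −0.07, under HDM 0.85, 0.44, 0.43 and 0.39). Some of the rises described above were smaller under HDM by that test: the log2FC of Hmgcs1 was 0.68 and 0.17 (limma adjusted p of the difference = 0.039), of Nsdhl 0.45 and −0.002, of Sc5d 0.39 and −0.10, of Ano1 0.66 and 0.18 (limma adjusted p of the difference = 0.0019), of Fbn1 0.81 and −0.04, and of Ccl6 1.23 and 0.15. The cell cycle genes Mcm6 (−0.77 and −1.54) and Ccne2 (−1.05 and −1.97) fell more under HDM by that test, and Ccl5 fell less (−2.37 and −0.77, limma adjusted p of the difference = 0.022). Dusp1, at a log2FC of 0.02 under PBS, rose under HDM (0.61, limma adjusted p = 5.7e-05). Cd74 and Cd207 had log2FC of −1.22 and −2.11 under HDM, and their differences from PBS did not pass.

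**Figure D5:**
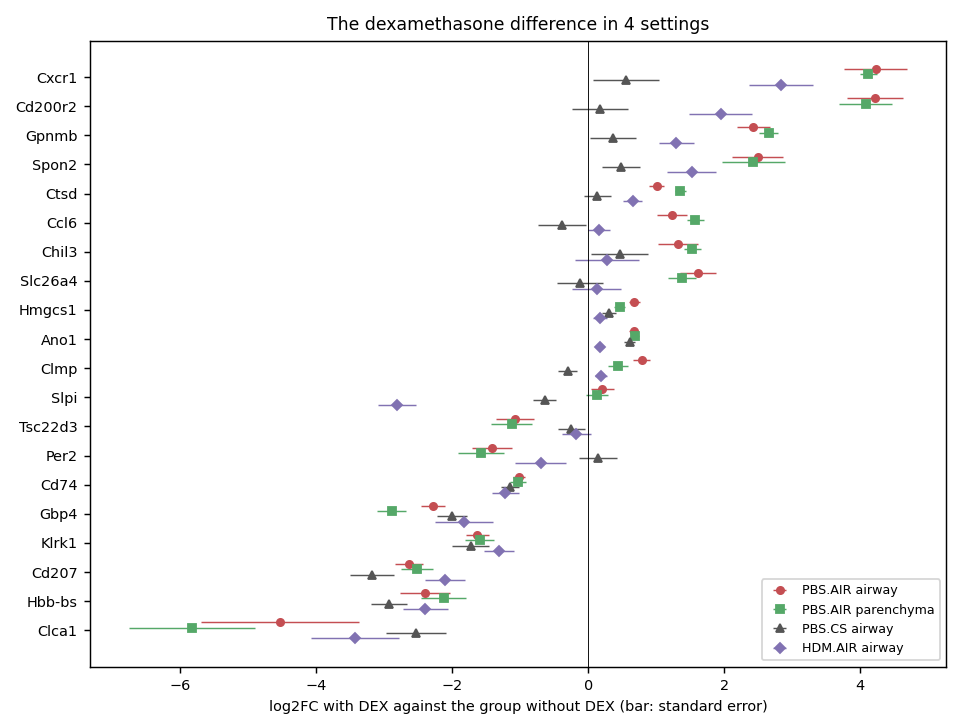
Log2 fold change of DEX against the matching group without DEX, for 20 genes named in the text, in airway under PBS and air, parenchyma under PBS and air, airway under PBS and smoke, and airway under HDM and air; points are limma-voom estimates and bars their standard errors. Gpnmb (0.36) and Cxcr1 (0.55) lie near 0 under smoke, while Cd74, Gbp4 and Cd207 lie below 0 in all 4 settings.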

How the data were processed

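The libraries were total RNA of dissected airway, sequenced by the authors as 100 bp single reads. The deposited table held estimated counts of 43346 Ensembl genes in 203 libraries (20.3% of values above 0 were not whole, at a tolerance of 1e-06) on build mm10. The labels' processing notes name STAR 2.5.1b, RSEM 1.2.31 and kallisto 0.44.0. Which of them made the table, and its use of strand, are not given in the sources used here. The study's supplement names annotation m21. Against that release, 42462 identifiers matched without version numbers and 23106 with them, and the release behind the table was not settled. No column was left unused. The study's methods describe only its earlier time point.

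The authors' estimated counts were rounded. Genes at or above 0.336 CPM (10 counts at the median depth) in at least 9 libraries were kept, scaled by TMM and tested with limma-voom (R 4.3.3, limma 3.58.1, edgeR 4.0.16) on the 10 and 10 libraries with Benjamini-Hochberg adjustment over all genes tested. Differences between settings were interaction terms over 40 libraries each. The counts were also tested with DESeq2 1.42.0 and edgeR's quasi-likelihood model, and under other scalings, filters, sample weights, library sets, code terms and each library left out; the 3 code ranges and the fit without replicate 4 of both groups were added after the values were seen. The scripts were tested on simulated data.

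The comparison, the 40 gene lists and the tests were chosen with earlier results of these data known, and 4 more lists (lysosome, erythroid, GTPases, MHC class I) after the values were seen. Named genes were, at an adjusted p under 0.05 and a mean of at least 1 CPM in the higher group, the 8 largest changes and 8 smallest p in each direction, up to 4 members per list and direction, and up to 4 genes per side of each difference; members of the glucocorticoid-induced, receptor machinery and clock lists, and members that did not pass, were named freely. Awat1, Ctsk, Hbb-bs, Hba-a1, H2-Aa and Irgm2 were named after their values were seen. Some genes that this rule names are not reported here.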

Additional observations from a re-analysis of the deposited data

Results flagged for a closer look

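Among 264 sets of 10 values, the control and the DEX values of each gene named, 10 held a library that stood apart: on the log2 scale its gap to the nearest library, as a ratio to the whole range, was above Dixon's 95% critical value, which chance gives in about 1 of 20 sets. Slc26a4 was lowest in control replicate 8 (0.979 CPM, ratio 0.5686). Igf1r was highest in control replicate 9 (20.4 CPM, ratio 0.4859). Irs2 was highest in control replicate 9 (11.1 CPM, ratio 0.5111). Slc4a1 was lowest in control replicate 7 (0.0858 CPM, ratio 0.4936). Gm18852 was highest in control replicate 4 (7.52 CPM, ratio 0.4845). Gm18852 was lowest in DEX replicate 9 (0.327 CPM, ratio 0.5069). Fcrla was highest in control replicate 4 (19.3 CPM, ratio 0.5790). Tff2 was lowest in DEX replicate 2 (3.23 CPM, ratio 0.4661). Klf9 was highest in DEX replicate 9 (136.3 CPM, ratio 0.4767). Ect2 was highest in DEX replicate 10 (9.3 CPM, ratio 0.6126).

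Some named genes differed in their DEX effect between settings. Each is given with the difference of its log2FC and the limma adjusted p of the interaction term. Airway minus parenchyma was positive for Hr (1.084, 5.9e-04), Ppp2r1b (0.415, 0.015), Vegfc (0.624, 0.015), Ltbp4 (0.846, 0.017). It was negative for Ctsk (−0.915, 0.045), Tnfsf13 (−0.738, 0.0027), Dmkn (−1.101, 0.0043), Sec14l3 (−0.747, 0.0097), Tuba4a (−0.553, 0.012). Air minus smoke was positive for Cd200r2 (4.031, 0.025), Clmp (1.080, 0.025).

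In airway, the difference of log2FC, PBS minus HDM, was positive at the limma adjusted p given for Ano1 (0.456, 0.0019), Hmgcs1 (0.477, 0.039), Nsdhl (0.423, 0.019), Sc5d (0.457, 0.0072), Cyp51 (0.523, 0.031), Fbn1 (0.819, 0.0046), Col5a2 (0.789, 0.001), Serpina3n (1.233, 0.032), Ccl6 (1.045, 0.036), Mcidas (2.308, 0.0099), Mcm6 (0.742, 0.021), Ccne2 (0.889, 0.022), Clmp (0.569, 0.025), Slpi (2.986, 2.6e-07), Sgo2a (1.643, 3.1e-06), Edem1 (1.009, 3.3e-06), Ect2 (1.154, 3.5e-06). It was negative for Lyve1 (−1.047, 0.0047), Ccl5 (−1.624, 0.022), Dusp1 (−0.625, 0.021), Gstm1 (−0.969, 4.4e-05), Mapk12 (−0.685, 9.3e-05), Hes1 (−0.652, 2.6e-04), Siah1a (−0.494, 4.4e-04).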

How the results depend on the processing

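With 160 libraries in 1 fit, 2716 genes were called, 1465 higher and 1251 lower, of which 338 fell by a log2FC of at least 1. With the runs of 20 codes as a term, 3350 were called, 1717 higher and 1633 lower. With a minimum of 10 CPM in 9 libraries, fewer genes were tested and 90 passed with a log2FC of at least 1 in size, 23 higher and 67 lower. With 1 library left out, 1145 to 1886 genes were called (513 to 895 higher and 592 to 991 lower), and 213 to 378 with the log2FC limit; the lowest count of rises came without DEX replicate 3 and was 525 without DEX replicate 2. The difference between tissues held 96 genes with edgeR, and that between air and smoke 11 with edgeR and 15 with 160 libraries. The cause of these shifts was not tested. The other counts stayed within 1.5 times. Among the named genes that were called, none reversed in any of the 31 alternatives. Of these genes, 90 passed in every alternative that gave a value and 18 were lost in at least 1. Named genes that were not called were left out of this count of reversals. The NK list counted 2 members under the 10 CPM minimum, which left most of it untested. The labels give no replicate numbers shared by the groups, and the fit with the runs of 20 codes as a term is the blocked analysis the codes allow. Libraries of both groups from 1 run of 20 codes deviated together in 9 of 10 runs (r over 0.1, across genes, median 0.39, against −0.06 for other pairs). In 4 of 10 controls the best correlation was with the DEX library of the same run. The fit described in the text did not take the runs as pairs, and leaves this shared deviation in its spread. Counting depth limits genes near 1 CPM, such as Cd200r2, Awat1 and Gm15056.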
